A study of Anopheles coluzzii and Anopheles merus with 32 samples.

Results

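Among 11025 gene identifiers measured in mosquito larvae, 298 had less messenger RNA in older than in younger freshwater larvae of both Anopheles coluzzii and Anopheles merus. They were chosen by that decline. A gene entered when its mean was at least 5 CPM (a gene's reads relative to the size of its library, here as scaled by the authors) in the younger freshwater libraries of each species, and when the older larvae stood at least 1.5 lower on the log2(CPM + 1) scale in each species. Identifiers in 6 numbered ranges were left out, which took away 2 of the 300 genes that the thresholds gave. The freshwater age difference of these genes is therefore a description of the choice, and the tests below use the saltwater libraries, which had no part in it.

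The libraries came from whole larvae of 2 malaria mosquito species, which the study sets against each other as narrowly and widely tolerant of salinity. Every group grew up in freshwater (FW). Larvae 18 h or 66 h old, counted from hatching, then spent 6 h either in FW or in saltwater (SW), and pools of 35 to 50 larvae gave 1 library each. The 8 groups were An. coluzzii and An. merus, each at 18 h in FW, 18 h in SW, 66 h in FW and 66 h in SW, with 4 libraries per group and read totals of 3769859 to 16633623. The salinity is not given in the labels, and they do not say whether pools of a group were raised separately. The p-values therefore set each difference only against the spread among these libraries, and part of that spread may be technical.

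A mosquito larva hatches from the egg as a small first instar and passes through a series of moults, growing strongly between them. Genes for building organs, laying down cuticle and dividing cells are generally used at set times in this course, so the messenger RNA of a whole larva shifts with age. In pools of whole larvae, fewer cells of a type and less RNA per cell cannot be told apart. The deposited table pairs no identifier with a gene name, and 0 of its 11025 identifiers were found in the gene table available here, so the genes are given by identifier and no role is assigned to them.

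The 298 genes were 3.71% of the 8028 genes outside the left-out ranges that passed the CPM minimum in both species. A further 142 genes passed the age threshold in An. coluzzii but not in An. merus, and 26 in An. merus but not in An. coluzzii. AGAP003271, AGAP007720 and AGAP010886 lay just inside it and AGAP004701, AGAP002818 and AGAP013391 just outside, and the smaller of the declines in the 2 species rounded to -1.5 (log2) for all 6. On the CPM minimum, AGAP003031, AGAP007628 and AGAP006169 entered at 5.35, 5.47 and 5.49 CPM, while AGAP003631, AGAP006026 and AGAP000383 stayed out at 4.95, 4.88 and 4.85 CPM. In the order of identifiers the genes were mostly scattered: 246 had no member as their neighbour in the table, and the rest formed 26 pairs, such as AGAP002115 with AGAP002116 and AGAP006590 with AGAP006591. No run of 3 or more occurred.

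Most of the genes were moderately expressed in young larvae. Averaged over both species at 18 h in FW, 27 stood at 100 CPM or more, 228 between 10 and 100 CPM and 43 below 10 CPM. Together they drew 2.02% ± 0.150 of the reads of An. coluzzii at 18 h in FW and 2.04% ± 0.103 in An. merus (SD, n = 4 libraries). At 66 h in FW that share was 0.330% ± 0.0464 and 0.379% ± 0.0300. The SW libraries gave 1.89% ± 0.401 and 1.86% ± 0.111 at 18 h, and 0.335% ± 0.0468 and 0.391% ± 0.0318 at 66 h. No 66 h library of either species or water reached the share of any 18 h library.

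In FW the median age difference was -2.01 in An. coluzzii (log2, from -2.97 to -1.5) and -1.81 in An. merus (from -4.78 to -1.5). The decline was at least 4-fold on this scale for 151 genes in An. coluzzii and for 64 in An. merus. The median gene at 66 h kept 21.4% of its 18 h level in An. coluzzii and 25.1% in An. merus. These values chose the genes.

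The median over the 298 genes was computed for each library. It was 24.4 to 29.9 CPM in An. coluzzii at 18 h in FW and 17.3, 25.1, 29.9 and 31.4 CPM in the 4 libraries at 18 h in SW. At 66 h its means were 5.33 ± 0.965 CPM in FW and 5.86 ± 0.83 CPM in SW. In An. merus the means were 27.9 ± 1.70 CPM in FW and 33.2 ± 2.48 CPM in SW at 18 h, and 7.01 ± 0.463 CPM and 9.31 ± 0.839 CPM at 66 h (SD, n = 4). Every 18 h library stood above every 66 h library, while the median over all tested genes stayed between 17.8 and 19.4 CPM in all 8 groups. At 66 h the 4 SW libraries of An. merus, at 8.15 to 10.1 CPM, lay above its 4 FW libraries, at 6.42 to 7.53 CPM. This separation is on the authors' scaling, and the rule chose genes with low FW values at 66 h. The share of reads drawn by the 298 genes overlapped between these groups, at 0.347% to 0.424% in SW and 0.361% to 0.424% in FW.

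**Figure D1:**
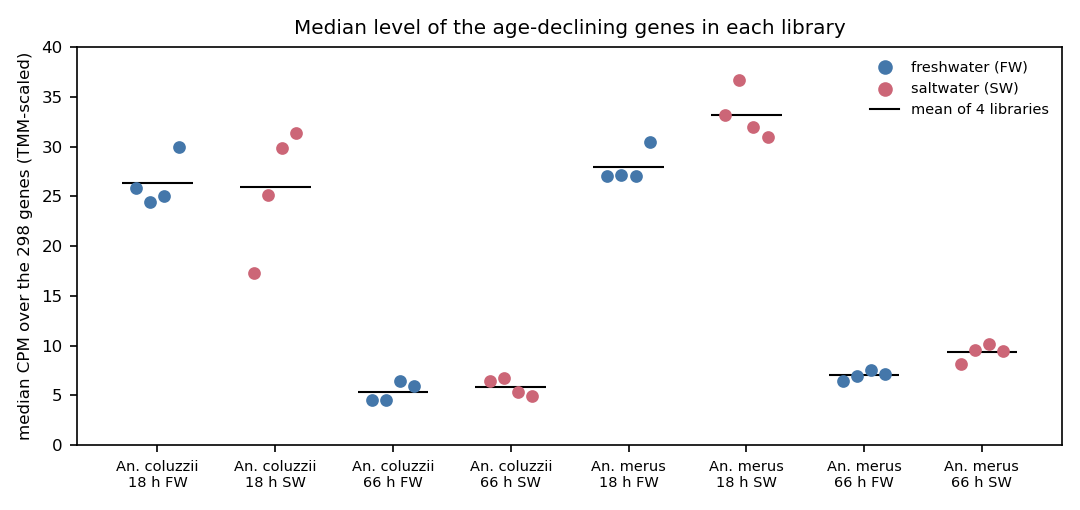
Median CPM (TMM-scaled, linear axis from 0) over the 298 age-declining genes in each of the 32 libraries, by species, age and water; points are libraries, blue in FW and red in SW, and lines are means of 4. The 18 h libraries sit at 17.3 CPM or more, all above the 66 h libraries, and the lowest 18 h point is a SW library of An. coluzzii.

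That low point is An. coluzzii 18 h SW replicate 1, which stands apart for these genes. It was the lowest of its 4 libraries for 288 of the 298 genes (96.6%), against 35.8% of the other tested genes, and it gave them 1.3% of its reads. With 7588059 reads it was the deepest of its group. Other libraries also took the extreme for many of the genes together: An. coluzzii 18 h FW replicate 4 was the highest of its group for 217 genes (72.8%, against 33.8% of other genes), and An. merus 18 h SW replicate 2 for 194 (65.1%, against 25%). Many of the 298 genes thus shared their highest or lowest library within a group. The counts of calls and the medians of the comparisons that include the low library are given with and without it. Other counts from these comparisons are given only with it.

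The first question is whether the decline with age was also present in larvae held in SW, in libraries that did not choose the genes. Those larvae also grew up in FW and spent only 6 h in SW, so this repeats much the same age contrast in other libraries. The shares of all tested genes are not matched to the CPM minimum of the rule. All 298 genes were lower at 66 h than at 18 h in SW in An. coluzzii, and 296 were lower in An. merus (limma, adjusted p below 0.05 over 10505 genes). Of all tested genes, 26.3% were called lower and 29.8% higher in An. coluzzii, and 32.4% lower and 29.4% higher in An. merus. None of the 298 was called higher in either species by limma, edgeR or DESeq2, and none was higher at an unadjusted limma p below 0.05. The median difference of the 298 genes was -1.91 in An. coluzzii (log2, quartiles -2.10 and -1.73, median SE 0.19), and that of all tested genes was 0.01. Without 18 h SW replicate 1 the same 298 genes were called, with a median of -2.09. In An. merus it was -1.68 (quartiles -1.89 and -1.46), against -0.05 for all tested genes. The difference reached 2-fold for 297 and 292 of the genes, and the shares of all tested genes at that size are not given here. At any size, 296 of the 298 and 20.3% of all tested genes were called lower in both species. Directions are relative to the authors' scaling: with every library rescaled to the same sum, the median of all genes moved to -0.37 in An. coluzzii and -0.51 in An. merus. The calls over all tested genes then split into 51.8% lower and 15.2% higher in An. coluzzii, and into 57.8% lower and 11.5% higher in An. merus. The 298 genes had medians of -2.31 and -2.15 on that scaling, and 298 and 297 were called lower.

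Without any model, all 4 SW libraries at 66 h lay below all 4 at 18 h for 296 of the genes in An. coluzzii and 295 in An. merus, against 22.8% and 28.9% of all tested genes. The exceptions were AGAP005458 and AGAP008848 in An. coluzzii and AGAP003145, AGAP009591 and AGAP009763 in An. merus. The depth of the decline in SW was at or past -1.5 for 280 of the 298 genes in An. coluzzii and 212 in An. merus. The shares of all tested genes at that depth are not given here. Applying the choosing rule to the SW libraries in place of the FW libraries gave 245 genes, of which 208 were among the 298. The shared genes were 69.8% of the 298 and 84.9% of the 245. Genes chosen past a threshold in some libraries tend to lie less far past it in others. Whether SW changed the depth of the decline was not tested.

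**Figure D2:**
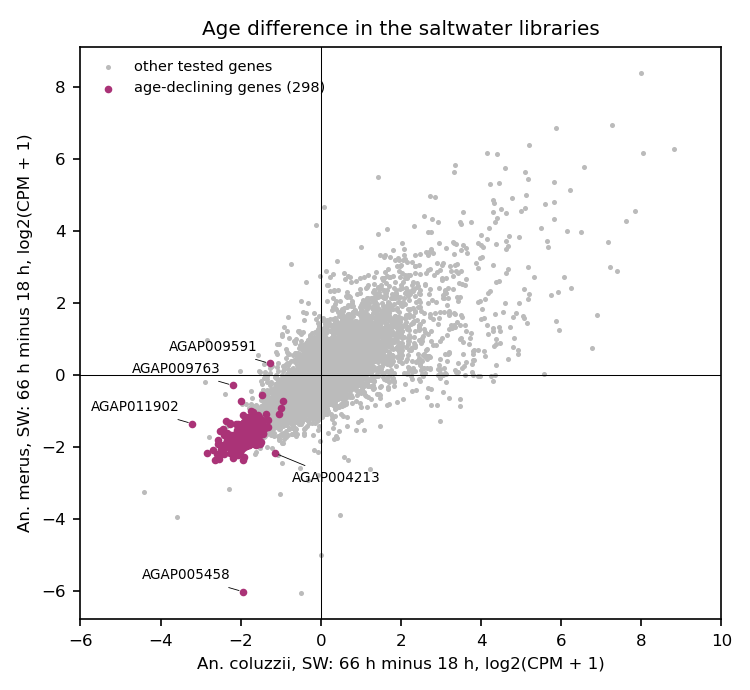
Age difference in SW (66 h minus 18 h, log2(CPM + 1), means of 4 libraries each) in An. coluzzii on the x axis and An. merus on the y axis, for the 298 age-declining genes (purple) and the other tested genes (grey). The 298 genes form a compact cloud around -1.91 and -1.68, and the 5 labelled genes, with a difference between species that passed the test, lie at or beyond its edge.

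AGAP001161 drew the most reads of the 298 genes. Its 18 h FW libraries held 2618, 2449, 2185 and 2473 CPM in An. coluzzii and 3300, 3504, 2814 and 3760 CPM in An. merus. In SW it stood at 1336, 2395, 2576 and 2249 CPM at 18 h against 626, 399, 397 and 359 CPM at 66 h in An. coluzzii. Both ages were clearly apart, although the low 18 h library again stood out. In An. merus in SW the values were 2217, 2340, 2085 and 2240 CPM at 18 h against 734, 631, 828 and 607 CPM at 66 h. The age difference in SW was -2.25 ± 0.19 in An. coluzzii and -1.67 ± 0.19 in An. merus (log2 ± SE, limma, adjusted p = 1.2e-07 and 2.8e-06).

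AGAP008127, also among the genes with the most reads, held 206, 268, 352 and 404 CPM at 18 h against 76.7, 85.6, 61.7 and 57.0 CPM at 66 h in the SW libraries of An. coluzzii. In An. merus it held 538, 550, 485 and 461 CPM at 18 h against 105, 136, 141 and 128 CPM at 66 h. The ages did not overlap in either species, and the differences were -2.09 ± 0.18 and -1.99 ± 0.18 (log2 ± SE). The other genes with the most reads at 18 h in FW, AGAP000129, AGAP006590, AGAP005866, AGAP006772 and AGAP005507, had SW age differences from -2.33 to -1.60 in An. coluzzii and from -1.97 to -1.34 in An. merus.

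AGAP002578 was among the genes with the deepest decline in FW. In SW in An. coluzzii it held 27.7, 50.3, 56.5 and 61.3 CPM at 18 h against 8.54, 9.71, 5.61 and 5.68 CPM at 66 h. Its An. merus libraries held 81.6, 87.0, 75.7 and 72.6 CPM at 18 h against 13.1, 14.9, 14.3 and 16.7 CPM at 66 h. The ages were separate in both species, and the SW differences were -2.55 ± 0.20 and -2.35 ± 0.20. These differed by 0.20 ± 0.29, which did not pass (log2 ± SE, limma, adjusted p = 0.68). The neighbouring identifiers AGAP002115 and AGAP002116 were both among the 12 genes with the deepest FW decline, at -2.53 and -2.41 averaged over the species. Libraries were not stranded, so reads from overlapping neighbours could not be told apart. AGAP002226, AGAP006028 and AGAP007086 also belonged to these 12, with SW age differences of -2.47, -2.58 and -2.43 in An. coluzzii, and in An. merus of -2.18, -2.19 and -2.21.

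The shallowest declines in SW in An. coluzzii were those of AGAP008848, AGAP006020 and AGAP007719, at -0.95 ± 0.21, -1.0 ± 0.16 and -1.05 ± 0.23 (log2 ± SE), all called. AGAP008848 held 3.15, 8.52, 9.17 and 7.02 CPM at 18 h against 3.53, 3.19, 2.38 and 2.64 CPM at 66 h, and its low 18 h library fell within the 66 h range. The deepest were AGAP011902, AGAP007160 and AGAP010435, at -3.21 ± 0.20, -2.84 ± 0.17 and -2.69 ± 0.20. In An. merus the deepest after AGAP005458 were AGAP001238 and AGAP006591, at -2.37 ± 0.21 and -2.36 ± 0.23, and AGAP007720 was among the shallowest at -0.56 ± 0.18 (limma, adjusted p = 0.00985). After quantile normalisation its decline was -0.43 and did not pass (adjusted p = 0.0592). AGAP007720 held 17.2, 17.0, 14.7 and 15.6 CPM at 18 h against 10.6, 8.60, 12.1 and 11.3 CPM at 66 h in SW in An. merus.

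Whether the decline differed between the species in SW was tested directly, as the age difference of An. merus minus that of An. coluzzii. It was called for 16 of the 298 genes, 14 where the An. merus difference was less negative and 2 where it was more negative (limma, adjusted p below 0.05). Of all tested genes, 7.79% were called in the first direction and 9.40% in the second. As shares of the 298 genes, both counts lay below these. The difference was above 0 for 248 of the 298 genes, with a median of 0.25 (log2) against -0.03 over all tested genes. For 282 genes no difference passed, and 37 of the 298 had an unadjusted p below 0.05. The shares of all tested genes above 0, or at that unadjusted p, are not given here. The count rests on An. coluzzii 18 h SW replicate 1: without it 68 genes were called less negative in An. merus and 2 more negative, and the median was 0.44. The shares of all tested genes called in that fit are not given here, so these counts stand without a background.

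AGAP011902 was 1 of the 14. Its 18 h SW libraries held 38.3, 51.7, 64.8 and 53.2 CPM in An. coluzzii and 56.0, 80.2, 63.9 and 66.6 CPM in An. merus. At 66 h in SW it held 4.45, 6.83, 5.35 and 2.74 CPM in An. coluzzii and 19.5, 29.3, 26.4 and 26.7 CPM in An. merus. The species overlapped at 18 h and were apart at 66 h. Its age difference was -3.21 ± 0.20 in An. coluzzii and -1.36 ± 0.20 in An. merus, and the difference between these was 1.85 ± 0.28 (log2 ± SE, limma, adjusted p = 0.00034). In FW at 66 h the same gene stood at 2.59, 3.80, 2.34 and 3.94 CPM in An. coluzzii, against 3.11, 3.77, 2.91 and 5.99 CPM in An. merus, so in FW the species overlapped at that age.

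AGAP009591 and AGAP009763 were the genes not called lower with age in SW in An. merus. AGAP009591 held 37.7, 43.4, 50.5 and 40.8 CPM at 18 h against 45.8, 60.7, 46.2 and 64.1 CPM at 66 h in SW in An. merus. Its 2 ages overlapped there, with a difference of 0.32 ± 0.22 (log2 ± SE, limma, adjusted p = 0.22). In An. coluzzii in SW it held 10.3, 23.8, 25.3 and 12.8 CPM at 18 h against 7.05, 6.33, 5.95 and 6.29 CPM at 66 h, without overlap, and the difference was -1.27 ± 0.22 (adjusted p = 1.0e-04). In FW its An. merus libraries stood at 155, 159, 120 and 155 CPM at 18 h against 41.7, 11.7, 34.0 and 12.1 CPM at 66 h. The difference between species in SW was 1.59 ± 0.31 (adjusted p = 0.0023), and in a fit over all 32 libraries it missed the threshold (adjusted p = 0.0624).

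AGAP009763 held 11.5, 19.1, 25.1 and 38.3 CPM at 18 h against 14.7, 23.2, 18.7 and 14.2 CPM at 66 h in SW in An. merus. The 66 h range lay within the 18 h range, and the difference was -0.29 ± 0.31 (log2 ± SE, limma, adjusted p = 0.427). In An. coluzzii it held 64.8, 48.2, 30.5 and 28.9 CPM at 18 h against 6.87, 7.96, 8.24 and 9.73 CPM at 66 h, a difference of -2.19 ± 0.31 with the ages apart. The species differed by 1.90 ± 0.44 (adjusted p = 0.0088). With every library rescaled to the same sum its decline in An. merus was -0.81 and passed the threshold (adjusted p = 0.0244).

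AGAP005458 and AGAP004213 were the genes called more negative in An. merus. AGAP005458 held 207, 333, 199 and 400 CPM at 18 h against 2.47, 3.31, 3.11 and 3.99 CPM at 66 h in SW in An. merus, the deepest decline of the 298 genes there at -6.03 ± 0.70 (log2 ± SE, limma, adjusted p = 7.1e-06). In An. coluzzii it was uneven between libraries, at 1.05, 36.3, 9.40 and 1.49 CPM at 18 h against 0.186, 0.940, 1.19 and 0.811 CPM at 66 h, where the lowest 18 h library fell within the 66 h range. Its decline in An. coluzzii was -1.94 ± 0.70 (adjusted p = 0.0305), and with 18 h SW replicate 2 or 3, or 66 h SW replicate 1 or 4, left out in turn it lost its call (adjusted p from 0.0533 to 0.0813), as it did with a pseudocount of 4 (adjusted p = 0.0553). The value moved to -1.11 without 18 h SW replicate 2. Its difference between species, -4.09 ± 0.99 (adjusted p = 0.0142), was -2.65 with edgeR's quasi-likelihood test on recovered reads and -2.52 with DESeq2, and passed with neither (adjusted p = 0.233 and 0.133).

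AGAP004213 held 26.5, 18.8, 14.1 and 15.5 CPM at 18 h against 8.72, 7.45, 5.95 and 8.92 CPM at 66 h in SW in An. coluzzii. In An. merus it held 18.4, 14.2, 17.3 and 15.6 CPM at 18 h against 2.33, 2.65, 2.99 and 3.45 CPM at 66 h. The species overlapped at 18 h and An. merus lay lower throughout at 66 h. The declines were -1.15 ± 0.17 and -2.18 ± 0.17, and they differed by -1.03 ± 0.25 (log2 ± SE, limma, adjusted p = 0.0088). After quantile normalisation this was -0.72 and did not pass (adjusted p = 0.0603).

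**Figure D3:**
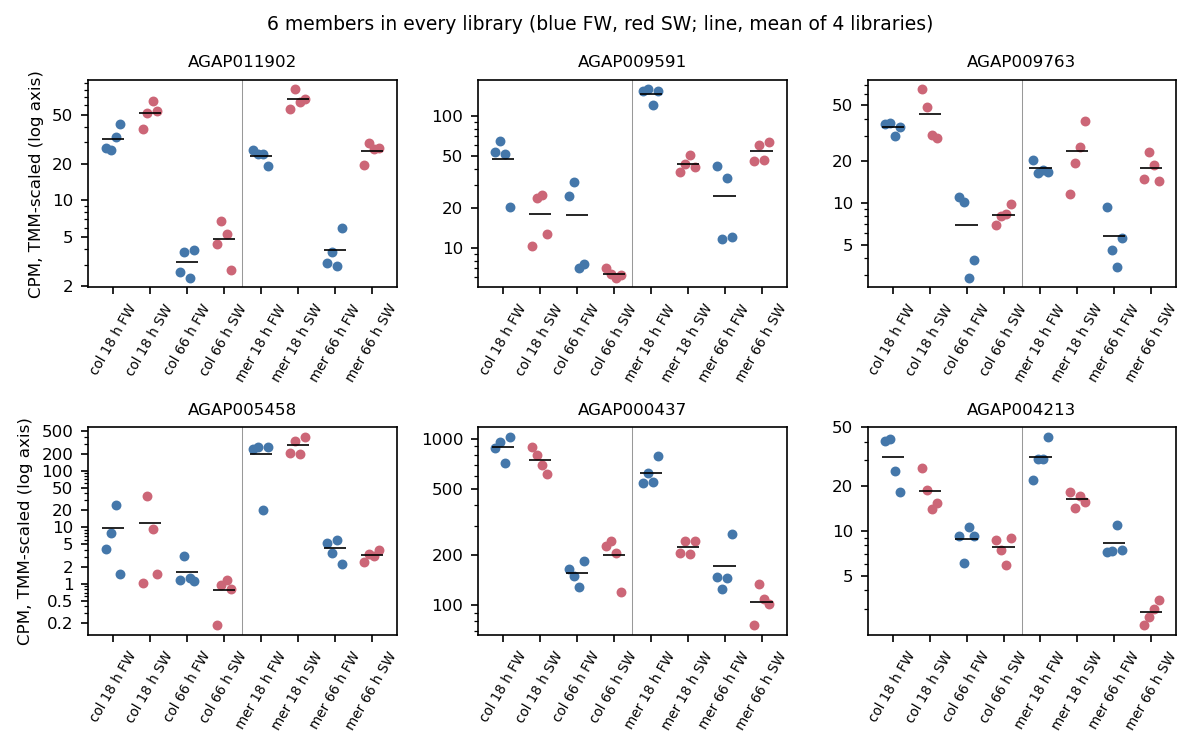
CPM (TMM-scaled, log axis, scaled separately in each panel) of 6 of the age-declining genes in all 32 libraries, by species (col, An. coluzzii; mer, An. merus), age and water; points are libraries, blue in FW and red in SW, and lines are means of 4. AGAP011902 and AGAP009591 stand higher in SW than in FW in An. merus at 66 h in the group means, while AGAP004213 stands lower.

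The level of the genes was then compared between the species in SW. At 18 h, 138 of the 298 genes were higher in An. merus and 16 lower (limma, adjusted p below 0.05), against 30.8% and 28.3% of all tested genes. At 66 h, 205 were higher and 10 lower, against 32.1% and 34.9%. An. merus minus An. coluzzii gave a median difference of 0.43 at 18 h and 0.68 at 66 h (log2), with 0.03 and -0.02 over all tested genes. Of the 298, 135 were higher in An. merus at both ages, 8 were lower at both, and AGAP009763 and AGAP010149 were lower at 18 h and higher at 66 h. These counts over both ages include the low library at 18 h, and the shares of all tested genes called at both ages are not given here. Both species share 1 set of identifiers, and how readily the reads of each align to it was not tested.

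These species counts depend on the scaling and, at 18 h, on the low library. With every library rescaled to the same sum, 43 genes were higher and 30 lower at 18 h (median 0.12, with -0.25 over all tested genes, of which 17.2% were higher and 42.7% lower). At 66 h the same scaling gave 94 higher and 18 lower (median 0.30, with -0.42 over all tested genes, of which 16.2% were higher and 52.3% lower). Without An. coluzzii 18 h SW replicate 1, 95 were higher and 27 lower at 18 h, and the median was 0.25. The shares and median of all tested genes in that fit are not given here. With all libraries those shares were 30.8% higher and 28.3% lower.

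AGAP001478 was among the 3 genes with the highest species difference at both ages. It held 32.1, 41.5, 51.8 and 52.8 CPM at 18 h in An. coluzzii and 92.2, 105, 92.5 and 102 CPM in An. merus, all in SW. At 66 h in SW it held 15, 12, 12 and 11 CPM in An. coluzzii and 50.9, 47.6, 46.1 and 47.4 CPM in An. merus. An. merus was higher in every library at both ages, by 1.15 ± 0.14 and 1.87 ± 0.14 (log2 ± SE), and its decline with age was the shallower by 0.72 ± 0.19 (limma, adjusted p = 0.0157).

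Among the genes lower in An. merus, AGAP000437 held 891, 803, 692 and 618 CPM in An. coluzzii and 206, 244, 203 and 245 CPM in An. merus at 18 h in SW. At 66 h in SW it held 227, 243, 207 and 120 CPM in An. coluzzii and 75.9, 135, 109 and 102 CPM in An. merus. The species were apart at 18 h and overlapped at 66 h, with differences of -1.73 ± 0.20 and -0.89 ± 0.20 (log2 ± SE, both called). AGAP007281 was lower in An. merus by -1.57 ± 0.21 at 18 h and -0.94 ± 0.21 at 66 h. AGAP028037 and AGAP001047 were also lower at both ages, at -1.15 ± 0.18 and -1.13 ± 0.17 at 18 h and at -0.93 ± 0.18 and -1.09 ± 0.17 at 66 h.

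**Figure D4:**
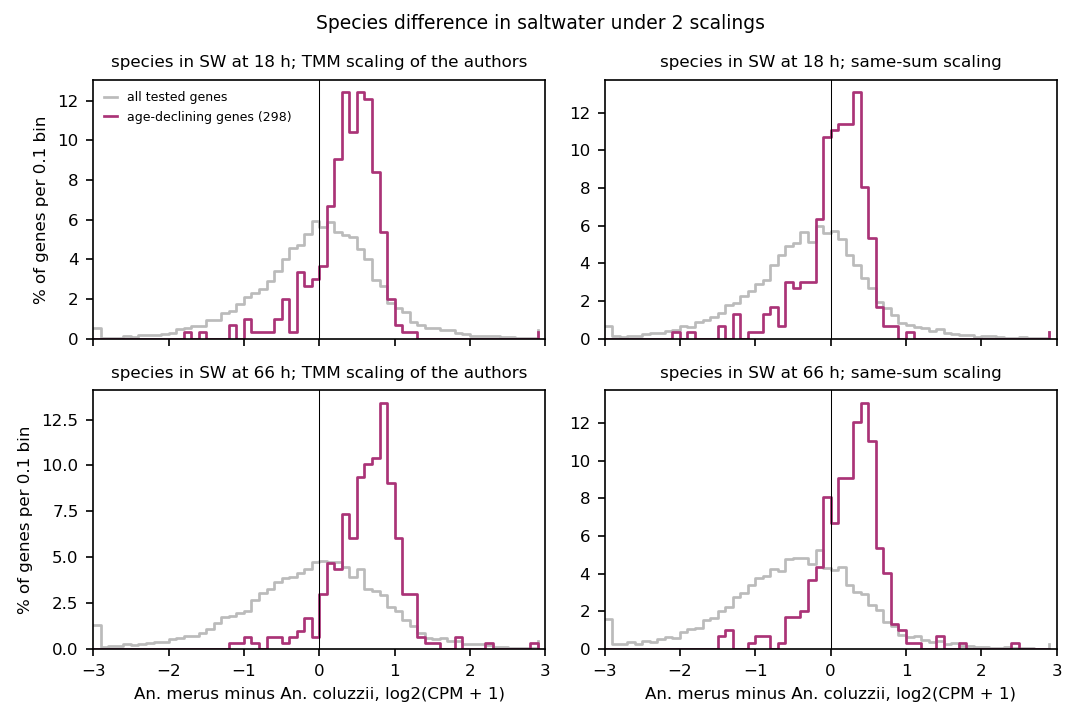
Percent of genes per bin (y axis) by species difference in SW (An. merus minus An. coluzzii, log2(CPM + 1), x axis, the end bins holding all values beyond) at 18 h (top) and 66 h (bottom), on the authors' scaling (left) and with all libraries at the same sum (right), for the 298 age-declining genes (purple) and all tested genes (grey). The medians of the 298 genes are 0.43 and 0.68 on the left and 0.12 and 0.30 on the right, above those of all tested genes in each panel.

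Finally the SW and FW libraries of each species and age were set side by side, as a description, because the FW libraries chose the genes. The rule favours genes with high FW values at 18 h and low FW values at 66 h. That choice alone pushes SW minus FW down at 18 h and up at 66 h, and the background genes were not chosen this way. In An. coluzzii few of the 298 genes separated the waters, and the sign of the median at 18 h rested on single libraries. At 18 h, 0 genes had all SW libraries above all FW libraries and 3 had them below (background 4.02% and 5.05% of all tested genes), with a median difference of -0.02 (log2). Without SW replicate 1, the low library, 9 were above and 3 below (background 9.74% and 10.9%), the median was 0.17 with 0.02 over all tested genes, and 237 of the 298 genes had a difference above 0, against 134 with it. With each library left out in turn that median ran from -0.13, without SW replicate 4, to 0.17. The 3 were AGAP001047, AGAP005507 and AGAP007942, at -0.44, -0.35 and -0.37. At 66 h 4 genes were above and 0 below (background 5.32% and 5.88%), with a median of 0.09, which ran from 0.02 to 0.15 with each library left out in turn. These 4 were AGAP000875, AGAP008848, AGAP012965 and AGAP013010, at 0.56, 1.0, 0.62 and 0.61.

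In An. merus more of the genes stood above than below, and at 66 h the choice of the genes itself pushes in that direction. At 18 h, 105 of the 298 had all 4 SW libraries above all 4 FW libraries and 9 had them below, against 25.1% and 25.1% of all tested genes, and the median difference was 0.23 (log2) with -0.02 over all tested genes. At 66 h, 114 were above and 4 below, against 22.8% and 27.1%, and the median was 0.37 with -0.06 over all tested genes. With every library rescaled to the same sum the counts were 29 above and 28 below at 18 h (background 16.1% and 36.6%), and the median was 0.02 with -0.21 over all tested genes. On that scaling 57 were above and 17 below at 66 h (background 14.3% and 38.9%), and the median was 0.15 with -0.26 over all tested genes.

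The genes that stood highest in SW against FW at 18 h included the same identifiers in both species. AGAP011902 held 26.5, 26, 32.6 and 41.7 CPM in FW and AGAP006591 held 7.52, 9.42, 13.5 and 14 CPM in FW in An. coluzzii, and their differences in SW were 0.70 and 0.80 (log2). In An. merus AGAP011902 stood at 25.9, 23.7, 24.1 and 19.0 CPM in FW, and its difference was 1.48. AGAP006591 held 7.25, 5.41, 9.27 and 8.16 CPM in FW and 19.9, 18.1, 17.0 and 15.8 CPM in SW in An. merus, a difference of 1.15. In An. merus the 2 waters did not overlap for either gene, and in An. coluzzii they overlapped for both. For AGAP011902 the overlap in An. coluzzii was only between SW replicate 1, the low library, and FW replicate 4.

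AGAP028037 held 21.0, 27.4, 16.9 and 28.2 CPM in FW and 74.9, 71.1, 57.9 and 59.8 CPM in SW at 18 h in An. merus, without overlap, a difference of 1.48 (log2). Its An. coluzzii libraries at 18 h held 123, 141, 122 and 105 CPM in FW and 122, 188, 114 and 178 CPM in SW, with overlap. At the other end, AGAP000437 and AGAP009591 were lower in SW than in FW in An. merus at 18 h in every library, by -1.47 and -1.7. AGAP004213 was below at both ages in An. merus, by -0.87 at 18 h and -1.26 at 66 h. AGAP009591 and AGAP004213 also had the lowest differences at 18 h in An. coluzzii, at -1.33 and -0.68 (log2). In An. coluzzii the waters overlapped for both of these genes, and AGAP000437 was not among the 3 lowest.

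**Figure D5:**
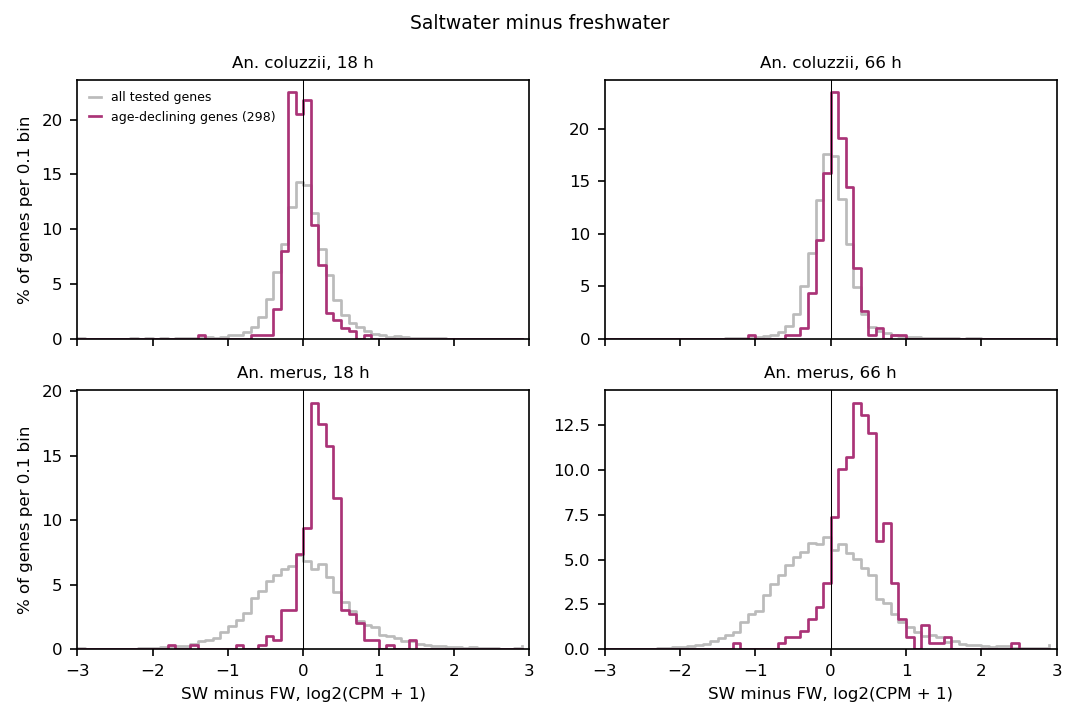
Percent of genes per bin (y axis) by SW minus FW difference of group means (log2(CPM + 1), x axis, the end bins holding all values beyond), with 1 panel per species and age, for the 298 age-declining genes (purple) and all tested genes (grey). In An. coluzzii the medians of the 298 genes are -0.02 (0.17 without 18 h SW replicate 1) and 0.09, and in An. merus 0.23 and 0.37, on the authors' scaling. The FW libraries chose the genes, which pushes the difference down at 18 h and up at 66 h.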

How the data were processed

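The authors deposited 1 table of CPM with edgeR's TMM scaling (trimmed mean of M values), recorded here as a signal because its columns sum to 737787 to 1481287. The tools were edgeR, HTSeq, TopHat2, Bowtie2 and Trimmomatic, per the submitters' processing notes, which give no role or version. The build and annotation are not given in the sources used here. Libraries were made with the TruSeq v2 kit with polyA selection, per the labels' protocols. All values were whole reads within 0.01 reads (100%), and these reads served edgeR 4.0.16 and DESeq2 1.42.0 as alternatives.

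Groups were read from the sample titles. The 16 SW libraries were fitted with limma 3.58.1 in R 4.3.3 (trend and robust options, 4 group means) on log2(CPM + 1), which understates changes of low genes. A test laid out for CPM thus served this signal. It was two-sided, with Benjamini-Hochberg adjustment over the 10505 genes whose mean reached 1 CPM (520 were not tested) and calls at an adjusted p below 0.05. All 298 genes were tested. Figures were drawn with matplotlib 3.10.9.

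The genes and lists were chosen with earlier results of these data known. Named are the 12 genes with the deepest FW decline, the 8 with the most reads, the 3 extremes of each comparison, those at the thresholds and those not called. Some are given by range only or left out for length. Genes behind counts of 5 or fewer, the example pairs of neighbours and the 66 h SW value of AGAP004213 against FW were named after their values were seen. Gene lists, marker lists and promoter motifs matched no identifier and were not used. Alternatives were other pseudocounts, filters, thresholds, scalings and tools, and leaving out each library.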

Additional observations from a re-analysis of the deposited data

Results flagged for a closer look

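For 10 of the genes, and for the mean over all 298, each of the 8 groups was examined, 88 in all. A library far from the other 3 of its group was found in 7, where chance gives about 1 in 20. That rate is only a rough guide, because the 10 genes were picked largely for extreme values and share the same libraries. AGAP000437 stood at 269 CPM in An. merus 66 h FW replicate 4, against 126 to 148 CPM in the others. AGAP001161 stood at 626 CPM in An. coluzzii 66 h SW replicate 1, against 359 to 399 CPM. AGAP004213 stood at 11.0 CPM in An. merus 66 h FW replicate 3, against 7.28 to 7.44 CPM. AGAP005458 stood at 3.04 CPM in An. coluzzii 66 h FW replicate 2, against 1.10 to 1.26 CPM, and at 20.4 CPM in An. merus 18 h FW replicate 3, against 244 to 263 CPM. AGAP006591 stood at 5.69 CPM in An. coluzzii 66 h SW replicate 3, against 3.85 to 4.08 CPM. AGAP009591 stood at 120 CPM in An. merus 18 h FW replicate 3, against 155 to 159 CPM.

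The age difference in SW differed between the species for 16 of the 298 genes in the test of the difference itself (limma on log2(CPM + 1), called at an adjusted p below 0.05). Of all tested genes, 7.79% were called less negative in An. merus and 9.40% more negative. Here the 5 called genes among the 3 highest and 3 lowest estimates are given. The value, An. merus minus An. coluzzii, was 1.90 for AGAP009763, 1.85 for AGAP011902, 1.59 for AGAP009591, -1.03 for AGAP004213 and -4.09 for AGAP005458. Some of these calls were lost in other fits. AGAP005458 passed with neither edgeR nor DESeq2. AGAP009591 missed the threshold in the fit over all 32 libraries, and AGAP004213 missed it after quantile normalisation.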

How the results depend on the processing

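No paired analysis was possible because the titles give every library a number of its own and the replicate numbers used here only follow the order of deposition. The decline with age in SW was called for 297 to 298 genes in An. coluzzii and 295 to 297 in An. merus under every pseudocount, filter, scaling and tool tried. With 1 library left out these counts ran from 297 to 298 and from 296 to 296, with 0 called higher. The direction turned in 1 gene, AGAP009591 in An. merus in SW, at -0.22 with every library rescaled to the same sum (adjusted p = 0.397). The cause was not tested.

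For the difference of the decline between species, quantile normalisation gave 57 genes less negative in An. merus and 1 more negative, DESeq2 22 and 1, and edgeR 15 and 1. In the main fit 7.79% of all tested genes were called less negative and 9.40% more negative. The shares of all tested genes in these other fits are not given here. Leaving out 1 library gave 10 to 68 and 2 to 2. Species differences at 18 h ran from 95 to 167 higher and 11 to 27 lower with 1 library left out, and at 66 h from 186 to 223 and 9 to 11. Shares of all tested genes are not given for these fits with 1 library left out. Scaling to the same sum gave 43 and 30 at 18 h and 94 and 18 at 66 h.

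The rule gave 137 genes with a pseudocount of 4, 453 and 168 with an age threshold 0.25 milder and 0.25 stricter, 618 with libraries of the same sum and 281 to 313 with 1 library left out. Genes without overlap between SW and FW, above and below, came with 1 library left out to 0 to 9 and 3 to 11 in An. coluzzii at 18 h, 4 to 14 and 0 to 6 at 66 h, 107 to 147 and 9 to 13 in An. merus at 18 h, and 114 to 160 and 4 to 8 at 66 h. Fewer libraries make separation easier by construction. In An. coluzzii at 18 h the 9 came without SW replicate 1 and the 11 without FW replicate 3, at 66 h the 14 without SW replicate 4 and the 6 without FW replicate 2, and in An. merus at 66 h the 8 without FW replicate 3. Same-sum scaling gave 1 below in An. coluzzii at 66 h, 29 above and 28 below in An. merus at 18 h, and 57 and 17 at 66 h.

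Of single genes in their tests, 828 values with 1 library left out kept direction and call and 4, all of AGAP005458, lost the call. Under other settings 408 kept both, 6 lost the call and 1 gained it.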
